A study of Mus musculus with 4 samples.

Results

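The genes described here are 8 small nucleolar RNA host genes, Gas5, Snhg1, Snhg3, Snhg5, Snhg6, Snhg7, Snhg8 and Snhg12, chosen by name from the 23235 gene symbols that were measured by RNA-seq in mouse early blastocysts. Each of the 8 symbols matched 1 row, and all 8 passed the filter on low values, a mean of at least 1 FPKM, that left 11039 genes for testing. The values are taken to be FPKM, fragments per kilobase of transcript scaled to the mapped total, a unit that is inferred. Embryos from in vitro fertilization (IVF) were compared with embryos cloned by somatic cell nuclear transfer (SCNT), the replacement of an oocyte's nucleus by a somatic one, with 2 libraries per group. A library held RNA of 6 embryos, collected at 96 hours counted from fertilization or activation. For IVF, Xist knockout oocytes on the 129S1/Svj background were joined with sperm of wild-type CAST/EiJ males. For SCNT, B6D2F1/J recipient oocytes were given nuclei of embryonic fibroblasts, which were heterozygous for the Xist knockout and came from 129S1/SvImj mothers and CAST/EiJ fathers. Both groups thus carry an Xist knockout, and the way an embryo was made cannot be told apart here from the strain of its oocyte. The column headers of the SCNT libraries also carry the name kdm4d, which the labels do not explain.

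Host genes of this kind are transcribed by RNA polymerase II and spliced, and their introns are trimmed to small nucleolar RNAs (snoRNAs). Box C/D snoRNAs guide 2'-O-methylation of ribosomal RNA and box H/ACA snoRNAs guide its pseudouridylation, so the introns serve ribosome production. The spliced exons code for no long protein, and in several hosts, Gas5 among them, they begin with the pyrimidine tract typical of messages for the translation machinery and are removed by nonsense-mediated decay while being translated. A mammalian blastocyst makes ribosomes from its own genome and depends on such snoRNAs.

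The start regions of the hosts are shown because the pyrimidine tract and the promoter's TATA element recur among them beyond the snoRNAs they carry. RefSeq windows (GRCm38.p6, while the authors' build is mm9) were matched for 7 of the 8 genes, Snhg6 being the exception, and Gas5 had 2 annotated starts. Each line runs from 50 bases before to 50 bases after the annotated start, 5′ to 3′ on the gene's strand, and capitals mark each TATA and the unbroken run of C or T that begins at the start.
Gas5, upstream start, chr1:161034551-161034650, plus strand: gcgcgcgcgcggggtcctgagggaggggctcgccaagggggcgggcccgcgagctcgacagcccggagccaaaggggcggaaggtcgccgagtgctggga
Gas5, downstream start, chr1:161035116-161035215, plus strand: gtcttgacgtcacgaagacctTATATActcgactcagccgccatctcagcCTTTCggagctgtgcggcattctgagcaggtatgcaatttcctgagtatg
Snhg1, chr19:8723437-8723536, plus strand: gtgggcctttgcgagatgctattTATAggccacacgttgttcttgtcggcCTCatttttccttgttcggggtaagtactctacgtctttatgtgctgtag
Snhg3, chr4:132353637-132353736, minus strand: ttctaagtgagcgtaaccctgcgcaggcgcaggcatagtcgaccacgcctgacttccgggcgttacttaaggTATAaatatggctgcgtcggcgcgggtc
Snhg5, chr9:88522848-88522947, minus strand: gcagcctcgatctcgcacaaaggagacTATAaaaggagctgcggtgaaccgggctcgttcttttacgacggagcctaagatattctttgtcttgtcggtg
Snhg7, chr2:26640195-26640294, minus strand: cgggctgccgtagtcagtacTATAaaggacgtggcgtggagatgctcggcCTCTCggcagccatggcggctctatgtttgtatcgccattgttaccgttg
Snhg8, chr3:123508287-123508386, minus strand: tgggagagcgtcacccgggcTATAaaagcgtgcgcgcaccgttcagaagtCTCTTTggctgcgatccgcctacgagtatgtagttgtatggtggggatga
Snhg12, chr4:132308628-132308727, plus strand: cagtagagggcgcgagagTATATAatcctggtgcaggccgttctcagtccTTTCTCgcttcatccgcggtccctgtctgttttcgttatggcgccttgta
The letters TATA, which read the same on both strands, occurred in the 50 bases before the start in 6 of the 8 windows and in 9.08% of all 32851 RefSeq windows. The exceptions were the upstream start of Gas5 and Snhg3, whose TATA lay 23 bases into the annotated transcript. A run of at least 5 C or T from the start, searched on the gene's strand, was present in 4 of the 8 windows, those of Snhg7, Snhg8, Snhg12 and the downstream start of Gas5, against 4.44% of all windows. The 2 patterns as counted cannot overlap, since the TATA lies before the start and the run begins at it. Matches describe letters at annotated starts and were not tied to any measurement.

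In the blastocysts the 8 hosts covered a wide span of levels, and no difference between SCNT and IVF passed the test against the spread between libraries. Snhg1 and Snhg3 were the most abundant, with means over the 4 libraries of 143.9 and 138.6 FPKM, followed by Snhg6 at 95.7, Snhg5 at 85.9, Gas5 at 46.6, Snhg12 at 27.6, Snhg7 at 17.8 and Snhg8 at 12.3 FPKM. Snhg8 was at the 78.2th percentile and Snhg1 at the 96.0th percentile of all genes by mean FPKM. The order was the same in IVF library 1 and both SCNT libraries. In IVF library 2, 3 neighbouring pairs changed places, Snhg3 with Snhg1, Snhg5 with Snhg6 and Snhg8 with Snhg7, so the order within these pairs is not larger than the spread. Snhg1 and Snhg3 together made up between 45.5% and 53.8% of the summed FPKM of the 8 genes. That sum came to 477.9 FPKM for IVF library 1 and 581.5 FPKM for IVF library 2, and to 606.9 and 607.6 FPKM for the SCNT pair. IVF library 1 was thus the low library, while IVF library 2 lay close to the SCNT libraries.

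**Figure D1:**
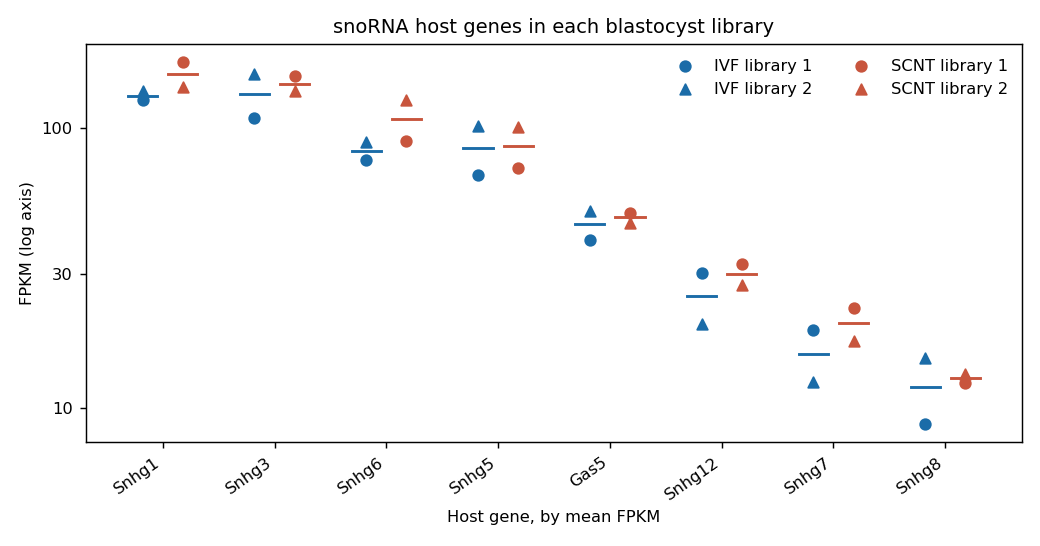
FPKM (log axis) of the 8 host genes in each library, with circles for libraries numbered 1, triangles for libraries numbered 2 and a line at each group's mean. Snhg1 and Snhg3 lie above 100 FPKM in every library, and the groups overlap in 6 of the 8 genes.

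Differences were tested with limma on log2(FPKM + 1), with p adjusted over all 11039 genes by the Benjamini-Hochberg method, and are given as SCNT minus IVF on that scale with 95% intervals. None of the 8 hosts passed an adjusted p of 0.05, and 0.127% of all tested genes did. Those 14 genes comprised 8 higher in SCNT (0.0725%) and 6 lower (0.0544%), and 11 of them were short RNA genes. With short RNA genes left out of both the scaling and the test, 3 genes were higher and 6 lower. In the fit of all 11039 genes, the count at an unadjusted p under 0.05 was 0 of 8 hosts against 7.09% of all genes. All 8 estimates lay above 0, from 0.04 to 0.36, as did 52.2% of all tested genes, and their median was 0.20 against 0.01 for all genes. The lowest value lay in IVF library 1 for 6 of the 8 hosts and for 25.8% of all tested genes. Without that library 4 of the 8 estimates were above 0 and the median was 0.06. The groups did not overlap in 2 of the 8 genes, Snhg1 and Snhg6, both higher in SCNT, against 33.4% of tested genes (18.3% higher and 15.1% lower). In bulk RNA of whole embryos, fewer cells of a type and less RNA per cell cannot be told apart.

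Snhg1, the host of several box C/D snoRNAs and one of the first recognized genes whose introns rather than exons carry the conserved product, stood at 126.2 and 135.8 FPKM for IVF against 172.8 and 140.8 FPKM for SCNT. SCNT library 1 was high and the other 3 libraries were close together. The means were 131.0 ± 6.81 and 156.8 ± 22.7 FPKM (SD, n = 2 libraries each), and the log2 difference of 0.25 ± 0.20 (SE) did not pass (limma adjusted p = 0.963). Its 95% interval ran from -0.26 to 0.76. Without SCNT library 1 the difference was 0.10. Snhg3, the host of the H/ACA RNAs of the U17 type, which act in early cleavage of the ribosomal RNA precursor, stood at 108.7 and 156.3 FPKM for IVF against 153.8 and 135.7 FPKM for SCNT. The IVF libraries enclosed both SCNT values. Its difference was 0.15 ± 0.24 (limma adjusted p = 0.9996, interval -0.48 to 0.77) and turned to -0.11 without IVF library 1. GENCODE has Snhg3 overlap Rcc1, a regulator of chromosome condensation, on the same strand, so reads of the 2 genes may not be fully separable. Rcc1 stood at 23.6 and 27.2 FPKM for IVF against 28.4 and 32.4 FPKM for SCNT, also without passing (limma adjusted p = 0.951).

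Snhg6, the host of Snord87, stood at 77.0 and 89.5 FPKM for IVF against 90.2 and 126.0 FPKM for SCNT. Both SCNT libraries lay above both IVF libraries, but SCNT library 1 only just did so, and the high value was that of SCNT library 2. The log2 difference of 0.36 ± 0.24 did not pass (limma adjusted p = 0.907, the lowest of the 8 hosts), and its interval ran from -0.24 to 0.96. Without SCNT library 2 it was 0.12, and without SCNT library 1 it was 0.60. Snhg5, the host of the U50 snoRNAs, stood at 68.1 and 101.9 FPKM for IVF against 72.3 and 101.1 FPKM for SCNT. Its libraries separated by their number and not by group, with both libraries numbered 1 low and both numbered 2 high. The difference was 0.04 ± 0.29 (limma adjusted p = 0.9996, interval -0.70 to 0.77). Its sign turned without IVF library 1 (-0.25), without SCNT library 2 (-0.20) and when FPKM were rescaled without short RNA genes (-0.02).

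Gas5, named for its accumulation in growth-arrested cells and known as a decoy that binds the glucocorticoid receptor, stood at 40.0 and 50.6 FPKM for IVF against 50.0 and 46.0 FPKM for SCNT. IVF enclosed SCNT here too, and the 4 values lay within a 1.27-fold range, the narrowest among the 8 hosts. The difference was 0.09 ± 0.20 (limma adjusted p = 0.9996), and -0.08 without IVF library 1. With all libraries, the interval from -0.42 to 0.60 leaves room for FPKM + 1 between 0.75 and 1.51 times that of IVF. Snhg12, which carries 4 annotated snoRNAs, stood at 30.3 and 19.97 FPKM for IVF against 32.8 and 27.5 FPKM for SCNT. IVF library 2 was low, and without it the difference of 0.28 ± 0.26 (limma adjusted p = 0.9996, interval -0.38 to 0.93) turned to -0.01.

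Snhg7 and Snhg8, hosts of H/ACA snoRNAs, had the lowest levels and the widest relative spread. Snhg7 stood at 18.9 and 12.3 FPKM for IVF against 22.8 and 17.4 FPKM for SCNT. SCNT library 2 lay below IVF library 1, so the groups overlapped. The difference of 0.36 ± 0.27, with that of Snhg6 the highest of the 8, did not pass (limma adjusted p = 0.956). Its interval, -0.33 to 1.05, allowed values of FPKM + 1 from 0.796 to 2.07 times those of IVF. Leaving out a library moved the estimate from 0.07 (without IVF library 2) to 0.65 (without IVF library 1). Snhg8 stood at 8.72 and 15.0 FPKM for IVF against 12.2 and 13.2 FPKM for SCNT, so that IVF enclosed SCNT. Its difference of 0.13 ± 0.28 (limma adjusted p = 0.9996, interval -0.58 to 0.85) turned to -0.23 without IVF library 1. Snhg7 had the highest upper bound of the 8, and those of the other 7 hosts lay between 1.51 and 1.94 times the IVF value of FPKM + 1.

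**Figure D2:**
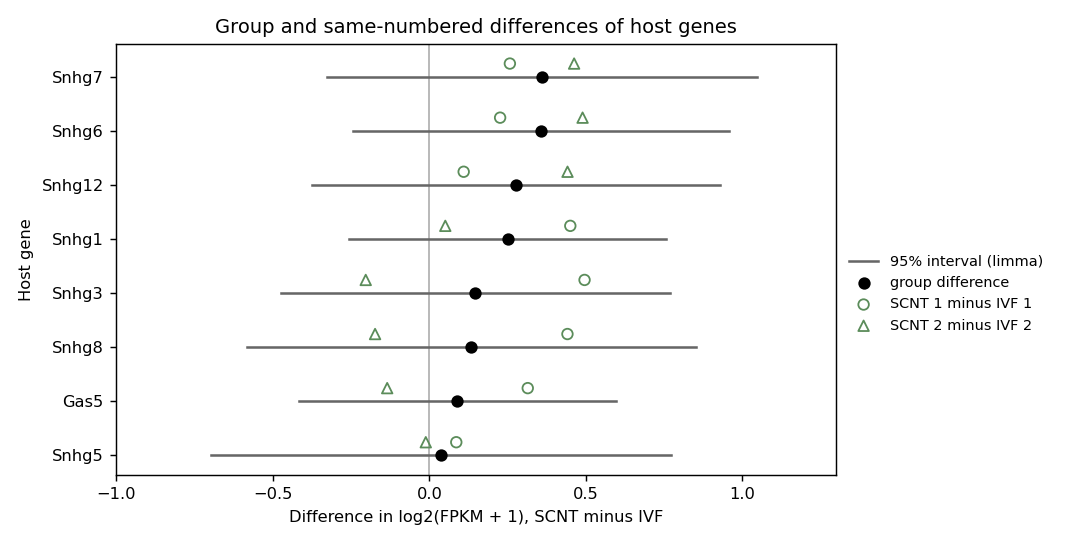
Difference in log2(FPKM + 1), SCNT minus IVF, for each host gene: the group difference (filled circle) with its limma 95% interval (line), and the differences between same-numbered libraries (open circle for number 1, open triangle for number 2). Every interval includes 0, and the triangles lie below 0 for 4 genes while every open circle lies above it.

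Because the libraries of a group differed, same-numbered libraries were also set side by side. SCNT library 1 exceeded IVF library 1 in 8 of 8 hosts, with a median difference of 0.29, where 50.0% of all tested genes were higher. SCNT library 2 exceeded IVF library 2 in 4 of 8 hosts, with a median of 0.02, where 53.3% of all genes were higher. Snhg1, Snhg6, Snhg7 and Snhg12 were higher in both comparisons, a pattern also seen in 33.8% of tested genes. For Snhg6, Snhg7 and Snhg12 the second comparison gave the larger value (0.49, 0.46 and 0.44), and for Snhg1 the first did (0.45 against 0.05). Gas5, Snhg3, Snhg5 and Snhg8 were higher only in the first.

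The snoRNAs themselves lie inside the host introns, and RefSeq annotates 28 of them in the 8 genes, all within the host's span. The deposited tables list 10 of the 28 under a symbol of their own: Snord47 in Gas5, Snord22 in Snhg1, Snord87 in Snhg6, Snora17 and Snora43 in Snhg7, Snora24 in Snhg8, and Snora16a, Snora44, Snora61 and Snord99 in Snhg12. Those that the next results turn on are printed from GENCODE M21 transcripts (GRCm38), with T for U, 5′ to 3′. Capitals mark TGATGA in the first 30 bases and the last CTGA of a box C/D RNA (its C and D boxes), and ACA in the last 8 bases of the H/ACA RNA Snora61.
Snord47 (in Gas5), chr1:161038082-161038158, plus strand: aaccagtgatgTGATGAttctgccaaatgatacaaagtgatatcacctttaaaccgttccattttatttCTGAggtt
Snord22 (in Snhg1), chr19:8725866-8725991, plus strand: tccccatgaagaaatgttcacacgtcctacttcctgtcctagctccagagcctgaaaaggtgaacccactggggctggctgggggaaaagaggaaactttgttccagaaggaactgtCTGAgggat
Snord87 (in Snhg6), chr1:9942463-9942549, minus strand: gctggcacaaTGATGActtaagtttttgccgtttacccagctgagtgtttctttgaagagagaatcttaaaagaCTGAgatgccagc
Snora61 (in Snhg12), chr4:132310240-132310369, plus strand: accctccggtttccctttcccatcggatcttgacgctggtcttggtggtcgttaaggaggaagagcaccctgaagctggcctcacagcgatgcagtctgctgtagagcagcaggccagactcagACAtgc
Snord99 (in Snhg12), chr4:132310691-132310764, plus strand: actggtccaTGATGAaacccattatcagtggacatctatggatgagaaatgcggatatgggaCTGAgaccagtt
TGATGA stood in the first 30 bases of Snord47, Snord87 and Snord99 and of 22.0% of the 1507 snoRNA transcripts in GENCODE, on the transcript's strand. It was not found there in Snord22. CTGA stood in 79.5% of the transcripts, at any position, and ACA in the last 8 bases of 46.8%.

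Hosts and their snoRNAs were not always ordered alike, and none of the 10 listed snoRNA genes passed the test (limma adjusted p of 0.891 or above). Of the 10, 4 estimates were above and 6 below 0, with a median of -0.22. Snord22, a box C/D RNA that acts in 18S ribosomal RNA processing, stood at 243.3 and 300.1 FPKM for IVF against 241.0 and 191.1 FPKM for SCNT. Its groups did not overlap, but SCNT library 1 lay only just below IVF library 1. The order was opposite to that of its host Snhg1, and Snord22's difference of -0.33 ± 0.23 did not pass (limma adjusted p = 0.926). The ratio of Snord22 to Snhg1 came to 1.93 and 2.21 for IVF against 1.39 and 1.36 for SCNT. Ratios of snoRNA to host were lower in both SCNT libraries without overlap for 5 of the 10 snoRNAs, namely Snord22, Snora17, Snora16a, Snora44 and Snora61, and higher without overlap for 0. These 5 are not separate results, since Snora16a, Snora44 and Snora61 are all divided by Snhg12. Snora17 was at 0 in SCNT library 1. No share of such ratios over other gene pairs was computed, so the count has no background beside it. By FPKM alone, 1 of the 10 snoRNA genes, Snord22, was without overlap between the groups, against 33.4% of all tested genes. Short RNA genes as a whole took 12.4% and 12.2% of summed FPKM in the IVF libraries and 9.50% and 9.73% for SCNT. Differences in these ratios were not tested, nor was the part of that shift in them.

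Snord47, the listed box C/D RNA of Gas5, stood at 852.1 and 753.5 FPKM for IVF against 1114 and 779.5 FPKM for SCNT. These overlapping values were between 14.9 and 22.3 times those of Gas5. Snord87 stood at 118.9 and 115.1 FPKM for IVF against 117.1 and 233.8 FPKM for SCNT. SCNT library 2 stood apart from the other 3, and the same library had the highest value of its host Snhg6.

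Within Snhg12 the snoRNA genes followed different libraries. Snora61 stood at 1529 and 427.9 FPKM for IVF against 489.7 and 439.7 FPKM for SCNT, high in IVF library 1 alone. Snord99 stood at 1368 and 2314 FPKM for IVF against 1303 and 3544 FPKM for SCNT, low in both libraries numbered 1. In Snhg7, Snora43 stood at 88.7 and 111.6 FPKM for IVF against 85.0 and 101.3 FPKM for SCNT. Its neighbour Snora17 stood at 43.5 and 28.6 FPKM for IVF against 0 and 29.2 FPKM for SCNT. Snora44 and Snora16a, the remaining pair of Snhg12, had group means of 21.7 ± 12.3 and 7.36 ± 0.790 FPKM in IVF and of 14.1 ± 0.976 and 7.36 ± 0.485 FPKM in SCNT (SD, n = 2 libraries each).

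Snora24 in Snhg8 stood at 0.00028 and 41.8 FPKM for IVF against 6.85e-06 and 2.38 FPKM for SCNT, so it was near 0 in both libraries numbered 1. RefSeq gives lengths of 56 to 139 bases for these 10 genes, and FPKM of such short features is unstable. For Snora61 and Snord99 RefSeq gives 62 and 56 bases, where the GENCODE transcripts have 130 and 74. The lengths by which the deposited values were divided are not known. Whether fragments came from mature snoRNAs or from unspliced host transcripts was not tested. When FPKM were rescaled without short RNA genes, the median difference was 0.14 for the 8 hosts and -0.034 for all tested genes, against 0.20 and 0.01 without rescaling.

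**Figure D3:**
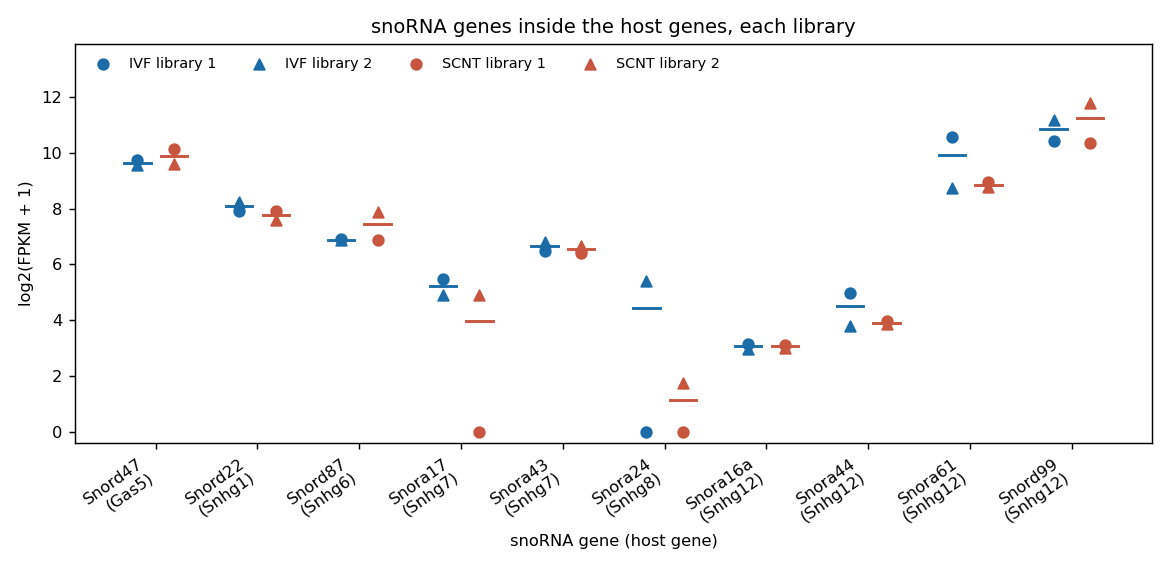
Level as log2(FPKM + 1) of the 10 listed snoRNA genes, with the host gene in brackets, in each library (circles for number 1, triangles for number 2, lines at the group mean of FPKM). Snord22 is lower in both SCNT libraries, though only just in SCNT library 1. Snora61 is high in IVF library 1, and Snora24 is near 0 in both libraries numbered 1.

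Protein-coding genes beside the hosts were read for the same libraries. Slc3a2, the heavy chain of amino acid transporters, lies within 1000 bases of Snhg1 on the opposite strand and stood at 46.2 and 51.5 FPKM for IVF against 61.4 and 52.5 FPKM for SCNT, with SCNT library 1 high as for Snhg1 (limma adjusted p = 0.986). Trnau1ap, a protein of selenocysteine incorporation at the same distance limit from Snhg12, stood at 30.1 and 29.6 FPKM for IVF against 41.2 and 37.6 FPKM for SCNT. Its groups did not overlap, yet the difference of 0.39 ± 0.17 did not pass (limma adjusted p = 0.772). No source used here gives the use of strand in counting, so reads of overlapping opposite genes cannot be told apart. Of the other neighbours, 4 were low. Zbtb37, which overlaps Gas5 on the opposite strand, lay between 0.559 and 0.815 FPKM, Fam69b beside Snhg7 between 0.311 and 2.11 FPKM, Prss12 beside Snhg8 between 0 and 0.080 FPKM, and 6030422M02Rik (Mcmdc2), which overlaps Snhg6, between 2.43 and 4.09 FPKM.

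Genes of the same pathway were listed by role, and none passed the test in either direction in any list. Of 14 further long non-coding hosts, 13 were matched and 11 tested, with 9 estimates above and 2 below 0 and a median of 0.18. Between same-numbered libraries the median of these 11 was 0.32 for number 1 and 0.01 for number 2. Snhg11 stood at 3.66 and 5.52 FPKM for IVF against 2.07 and 3.53 FPKM for SCNT, a difference of -0.56 ± 0.29 (limma adjusted p = 0.852). Snhg20 was low in IVF library 1, at 62.8 FPKM, against 134.2 in IVF library 2 and 122.7 and 151.2 in the SCNT libraries. Zfas1 was high in SCNT library 1, at 120.7 FPKM, and between 81.4 and 84.2 FPKM elsewhere. The 26 protein-coding hosts, whose exons encode a protein while their introns carry snoRNAs, had 17 estimates above and 9 below 0 with a median of 0.05. Among them Rpl10, a ribosomal protein gene, differed by 0.23 and Tcp1, a subunit of the chaperonin that folds actin and tubulin, by 0.16.

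The proteins that bind snoRNAs had median estimates below the 0.01 of all genes. Of the 4 box C/D core proteins, Fbl, the fibrillarin methyltransferase, stood at 262.4 and 240.6 FPKM for IVF against 217.2 and 218.7 FPKM for SCNT, without overlap, and its difference of -0.20 ± 0.18 did not pass (limma adjusted p = 0.992). The scaffold proteins Nop56 and Nop58 differed by -0.12 and 0.04 and the RNA-binding Nhp2l1 by -0.05. Of the 4 H/ACA core proteins, Dkc1, the dyskerin pseudouridine synthase and itself a snoRNA host, stood at 90.7 and 85.9 FPKM for IVF against 78.1 and 62.7 FPKM for SCNT. Again the groups did not overlap and the difference of -0.33 ± 0.20 did not pass (limma adjusted p = 0.898). Gar1, Nhp2 and Nop10 differed by -0.01, -0.01 and -0.12. Medians were -0.09 for the C/D and -0.06 for the H/ACA proteins.

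Assembly factors, which load these proteins onto new snoRNAs, had 8 of 12 estimates above 0 and a median of 0.05. The H/ACA assembly factor Naf1 stood at 2.37 and 2.14 FPKM for IVF against 3.13 and 2.90 FPKM for SCNT, a difference of 0.30 (limma adjusted p = 0.898). Rpap3, of the chaperone complex that assembles C/D particles, differed by 0.36, and Nolc1, a nucleolar and Cajal body phosphoprotein, by -0.26, both also without overlap and without passing. Nonsense-mediated decay factors, which limit the spliced hosts, had 5 of 14 estimates above 0 and a median of -0.04. The kinase Smg1 differed by -0.20, Casc3 of the exon junction complex by -0.21 and Smg8 by -0.16.

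For the mTOR pathway and its effectors, which control translation of pyrimidine-tract messages, 2 of 12 estimates were above 0 and the median was -0.08. Eif4ebp1, the repressor of cap-dependent translation that mTOR phosphorylates, stood at 613.5 and 503.4 FPKM for IVF against 476.0 and 351.3 FPKM for SCNT. The groups did not overlap, and the difference of -0.44 ± 0.25 did not pass (limma adjusted p = 0.884). Eif4ebp2 and Rptor differed by -0.15 and -0.19. For ribosomal RNA synthesis and processing, 9 of 19 tested genes had estimates above 0, with a median of -0.0046. Taf1c, a subunit of the RNA polymerase I promoter factor SL1, stood at 11.1 and 9.45 FPKM for IVF against 7.52 and 6.21 FPKM for SCNT. Its difference of -0.52 ± 0.19 had an unadjusted p of 0.0409 and did not pass over all genes (limma adjusted p = 0.656). The polymerase I subunit Polr1a differed by -0.28 and Taf1d by 0.26.

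**Figure D4:**
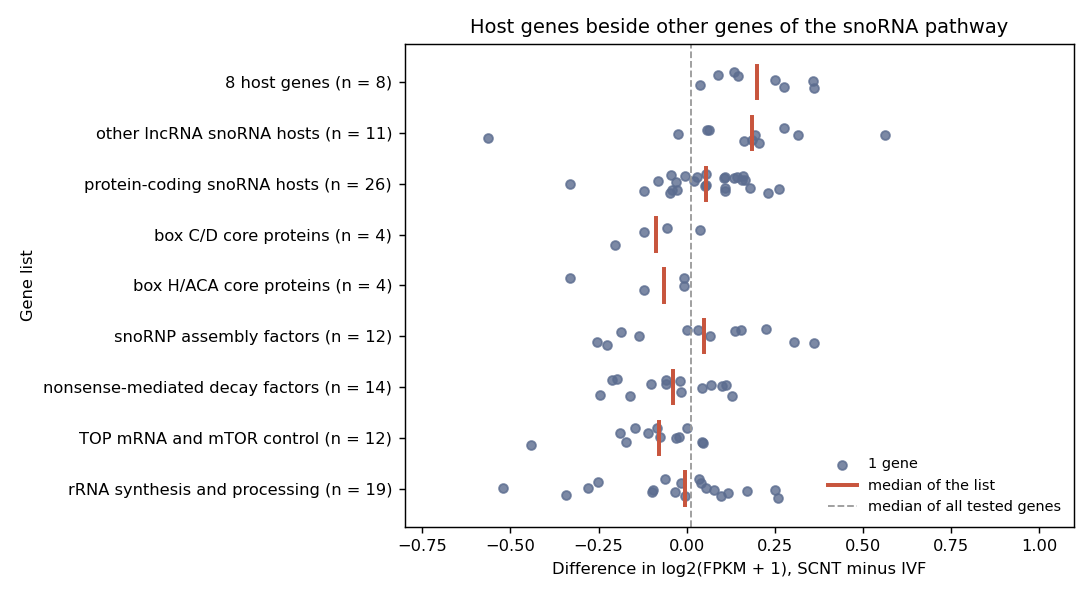
Difference in log2(FPKM + 1), SCNT minus IVF, of each tested gene (points, spread vertically to be seen) in the 8 hosts and 8 further lists, with the median of each list (bar) and of all tested genes (dashed line). The host medians lie at 0.20 and 0.18 for the 2 long non-coding lists, and the core protein lists lie at -0.09 and -0.06.

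By the profile over the 4 libraries, the genes nearest to the median of the 8 hosts were Sri, which encodes the calcium-binding protein sorcin, Tyms (thymidylate synthase), Nmt2 (an N-myristoyltransferase), the ribosomal protein gene Rpl39 and Ndufb5 of respiratory complex I. The root mean square difference from the hosts' profile was 0.026 to 0.032 on the log2 scale, among 5042 genes of at least 10 FPKM. With 4 libraries such likeness is a description. All 5 were lowest in IVF library 1 and highest in SCNT library 1. This follows from their selection, since the hosts' median profile has the same low and high library. Of the 8 hosts themselves, 3 were highest in SCNT library 1.

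The labelled stage was checked against marker genes. All 10 markers of trophectoderm and inner cell mass were detected in every library and summed to 4722 and 3948 FPKM for IVF against 6288 and 4269 FPKM for SCNT, with Krt8 at 1427 FPKM or more and Pou5f1 at 112.2 FPKM or more. None of the 10 passed the test, with 6 estimates above and 4 below 0 and a median of 0.09. By the smallest unadjusted p, the trophectoderm regulators Cdx2 and Eomes came first, with both SCNT libraries above both IVF libraries (differences of 0.63 and 0.95, limma adjusted p = 0.538 and 0.602), followed by Krt18 (0.40, groups overlapping). Estimates below 0 were those of Gata6 (-0.25), Tfap2c (-0.21), Nanog (-0.12) and Sox2 (-0.07). Of 12 fibroblast markers, Twist2 and S100a4 were at 0 in all libraries and the summed level was 2.06 and 0.684 FPKM in IVF and 6.17 and 0.772 FPKM in SCNT, with Col1a1 at 3.38 FPKM in SCNT library 1. Of 10 cumulus and granulosa markers, Cyp19a1, Amh and Ptx3 were at 0 throughout, and the sum of 5.33 to 7.78 FPKM in IVF and 8.96 to 11.9 FPKM in SCNT was mostly Amhr2. The 10 oocyte markers summed to 2.98 to 6.15 FPKM in IVF and 2.21 to 4.11 FPKM in SCNT, with H1foo the one tested. The fibroblast sum was highest in SCNT library 1, where Snhg1 was also high, and its part in the host values was not tested.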

How the data were processed

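RNA of 2 IVF and 2 SCNT libraries was analysed, with groups taken from the sample titles. Per the labels' protocols, lysed embryos went straight into SMARTer Ultra Low Input cDNA amplification, followed by shearing and a NEBNext Ultra DNA library kit. The authors deposited 1 value per gene symbol and library, taken to be FPKM. This unit is inferred from the values and from Cufflinks 2.2.1, which the submitters' processing notes list beside TopHat2 2.0.14, Bowtie2 2.1.0 and the mm9 build. No source used here gives the annotation, strand, filters or scaling between libraries. FPKM carries no depth, so absolute depth and counting error are unknown. Between 10802 and 10923 genes per library reached 1 FPKM.

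Genes with a mean of at least 1 FPKM were tested on log2(FPKM + 1) with limma 3.58.1 (R 4.3.3), using a trended prior, a model of group alone and Benjamini-Hochberg adjustment over 11039 genes. The pseudocount understates changes of low genes. The fit was tested on simulated data. Whether the 2 libraries of a group had separate parents or days is not stated, so p-values reflect only how far these libraries lie apart, possibly for technical reasons. The members and gene lists were chosen with earlier results of these data known. Symbols were matched directly or through 1 RefSeq synonym. Snhg14 matched no single row and was not used. Named genes were the 8 hosts, the 8 core snoRNA-binding proteins, the 2 most abundant listed snoRNAs of each host (others are given briefly), the 3 genes of smallest unadjusted p of each other list, and the 5 genes of most similar profile. Neighbours, named in addition, were protein-coding genes within 1000 bases in RefSeq or overlapping in GENCODE. One neighbour is not reported here. No set or list test was made. Alternatives were other pseudocounts, filters, scalings, a robust prior, a replicate block and leaving out each library.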

Additional observations from a re-analysis of the deposited data

How the results depend on the processing

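No host gene passed the limma test under any of the 14 alternatives, and the median difference of the 8 hosts ranged from 0.06 (without IVF library 1) to 0.31 (without IVF library 2). Of 112 host values under alternatives, 105 kept their direction and 7 turned. Other filters, the replicate block, the robust prior and testing without short RNA genes change p but not these differences. Their values thus kept direction by construction. Rescaling without short RNA genes turned Snhg5 to -0.017, and the other turns came with a library left out. With 1 library left out, in which case the lone library is assumed to vary like the others, the range was -0.076 to 0.26 for Gas5. It was -0.11 to 0.41 for Snhg3, -0.25 to 0.32 for Snhg5, -0.23 to 0.50 for Snhg8 and -0.013 to 0.56 for Snhg12. For these turns the cause was not tested. Over all genes, 8 higher and 6 lower calls became 5 higher without a filter and 12 lower with the robust prior. Neither setting without short RNA genes tested those genes. Calls became 3 higher with the other genes rescaled, and 2 higher without rescaling (chosen after seeing the data). Leaving out a library gave 15 to 31 higher and 14 to 34 lower calls.

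With the replicate number as a block, 12 genes were higher and 8 lower and no host passed (lowest limma adjusted p = 0.259, for Snhg6), while Snhg6 and Snhg7 had unadjusted p of 0.0312 and 0.0358. Over 11039 genes the same-numbered deviations from group means correlated at r = 0.31, but with 2 numbers per group the labels do not show that numbers pair the libraries. The precision is limited by 2 libraries per group: the 95% intervals of the hosts reach from -0.70 to 1.05 on the log2 scale.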
